A study of Mus musculus with 6 samples.

Results

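The 10 genes described here encode the core machinery of lytic, inflammatory cell death: the inflammatory caspases Casp1, Casp4 and Casp12, the inflammasome sensor Nlrp3 and its adaptor Pycard, the pore-former Gsdmd, the necroptosis kinase Ripk3 and its substrate Mlkl, and the cytokines Il1b and Il18. They were matched by gene symbol and all 10 were found among the 21705 genes of the expression table. The table came from poly(A) RNA sequencing of whole hearts of female FVB mice of the wild type, 12 to 16 weeks old. Once a day for 14 days 3 mice received vehicle and 3 received trametinib at 3 mg/kg, which blocks the ERK-activating kinases MEK1 and MEK2, and none of them carried a transgene or a deleted allele according to the labels. The comparison asks how the hearts' transcripts differed after sustained MEK inhibition.

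Trametinib hearts held about 2 times the vehicle level of the transcripts of 2 members, the adjacent caspase genes Casp4 (2.05-fold) and Casp12 (2.06-fold). Casp1, which lies beside them, was not called, and neither were Nlrp3, Pycard, Gsdmd, Ripk3, Mlkl and Il1b. Il18 was too low to test. Outside the members, the soluble interleukin-18 inhibitor Il18bp, the necroptosis sensor Zbp1 and the caspase-8 regulator Cflar rose. The interleukin-1 receptor Il1r1 rose and the membrane-rupture protein Ninj1 fell, calls that were both lost when a correction for transcript length and GC content was applied.

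In the canonical pathway a sensor such as Nlrp3 recruits Pycard (also called ASC), which gathers and activates caspase-1. Caspase-1 matures interleukin-1 beta and interleukin-18 and cleaves gasdermin D, whose freed fragment forms pores in the plasma membrane, a death called pyroptosis. Mouse caspase-4, long known as caspase-11, binds bacterial lipopolysaccharide in the cytosol and cleaves gasdermin D directly, the noncanonical route. Necroptosis is a separate lytic death in which the kinase RIPK3 phosphorylates MLKL, which then permeabilises the membrane, and active caspase-8 restrains it. These pathways are best known from macrophages and other innate immune cells, and in the heart they have been studied after infarction and in inflammation.

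Casp1, Casp4 and Casp12 are consecutive protein-coding genes on mouse chromosome 9, between Gria4 and Pdgfd. Their promoters are shown because 2 of the 3 neighbours rose and the third was not called. Each window is taken from RefSeq on GRCm38.p6, runs from 250 bases before to 50 bases after the annotated start and is written 5′ to 3′, with matches to the motifs searched in capitals. Casp4 has a second annotated start close by, and its first window is printed.
Casp1, chr9:5298267-5298566, plus strand: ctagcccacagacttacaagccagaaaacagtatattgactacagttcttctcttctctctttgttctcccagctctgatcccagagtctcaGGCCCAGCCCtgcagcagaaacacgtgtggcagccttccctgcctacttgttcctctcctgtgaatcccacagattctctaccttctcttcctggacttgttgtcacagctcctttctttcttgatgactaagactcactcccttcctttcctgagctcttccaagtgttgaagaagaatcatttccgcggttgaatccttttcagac
Casp4, chr9:5308599-5308898, plus strand: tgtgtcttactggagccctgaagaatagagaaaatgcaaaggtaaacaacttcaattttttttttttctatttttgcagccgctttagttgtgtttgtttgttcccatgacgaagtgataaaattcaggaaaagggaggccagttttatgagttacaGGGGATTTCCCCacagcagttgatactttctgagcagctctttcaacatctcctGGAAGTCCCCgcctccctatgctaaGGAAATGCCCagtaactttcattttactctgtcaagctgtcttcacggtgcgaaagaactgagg
Casp12, chr9:5345226-5345525, plus strand: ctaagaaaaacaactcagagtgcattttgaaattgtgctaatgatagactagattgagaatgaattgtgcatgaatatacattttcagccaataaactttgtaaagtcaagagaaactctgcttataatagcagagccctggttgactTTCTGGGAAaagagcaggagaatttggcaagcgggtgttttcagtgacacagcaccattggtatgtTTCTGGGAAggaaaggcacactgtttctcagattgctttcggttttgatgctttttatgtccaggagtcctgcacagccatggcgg

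The motifs were searched on both strands in these windows of the 9 members that have one, Gsdmd being the exception. The STAT-type GAS motif, TTC, any 3 bases and GAA, was found among the members only in Casp12, which holds it at 2 places, starting 102 and 36 bases before the start, against 8.30% of 32851 mouse windows. The relaxed NF-kB motif, GGG followed by any 5 bases and CC, was found in Casp1, Casp4 and Nlrp3, but 50.8% of all windows hold it. In Casp4 it matched in overlapping runs starting 93 to 91 bases before the start and again 39 and 14 bases before it. The stricter NF-kB form, GGGAC followed by TTTCC, was in none of the members and in 0.155% of all windows. The ISRE core, GAAA, any 2 bases and GAAA, was in none of the members either and in 3.44% of all windows. The motifs overlap in no printed window other than these runs of the relaxed form. A match is a string of letters and not a measured site.

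The values are the authors' normalized counts, called normalized signal here, scaled so that the upper quartile of expressed genes was 997.9 to 999.5 in every heart. Summed signal was 21656431 to 22330993 per heart, and the spacing of the low values implies 14304530 to 16047066 reads per heart in the control arm, against 23033127 to 24692494 after trametinib, so low genes are measured more precisely in the trametinib arm. Trametinib replicate 3 stood apart along the first principal component, which held 57.2% of the variance, at 56.9 against 27.4 and 30.6 for the other trametinib hearts and -47.2 to -28.7 for the vehicle hearts. In whole-heart RNA, fewer cells of a type and less RNA per cell cannot be told apart. The cardiomyocyte markers were those of heart tissue, with Myh6 at 603381 to 920741 and none of the 15 markers listed at 0.

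Each gene was tested with limma on log2(value + 1), a scale that understates the change of low genes, and p-values were adjusted by the Benjamini-Hochberg method over the 13581 genes with a mean signal of at least 10. Of all genes tested, 44.5% passed an adjusted p of 0.05, 21.6% higher and 22.8% lower with trametinib, and in 56.5% the values of the arms did not overlap. Of the 9 members tested, 2 passed, both higher and none lower, a smaller share than in the table as a whole. In 4 members the arms did not overlap, Casp4, Casp12 and Mlkl with every trametinib heart higher and Ripk3 with every trametinib heart lower. The median log2 fold change was 0.25 for the 9 members and -0.01 for all genes tested. A correction for transcript length and GC content lowered the share of all genes called to 22.2%, kept the number of members called at 2 and gave medians of 0.46 and 0.03.

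**Figure D1:**
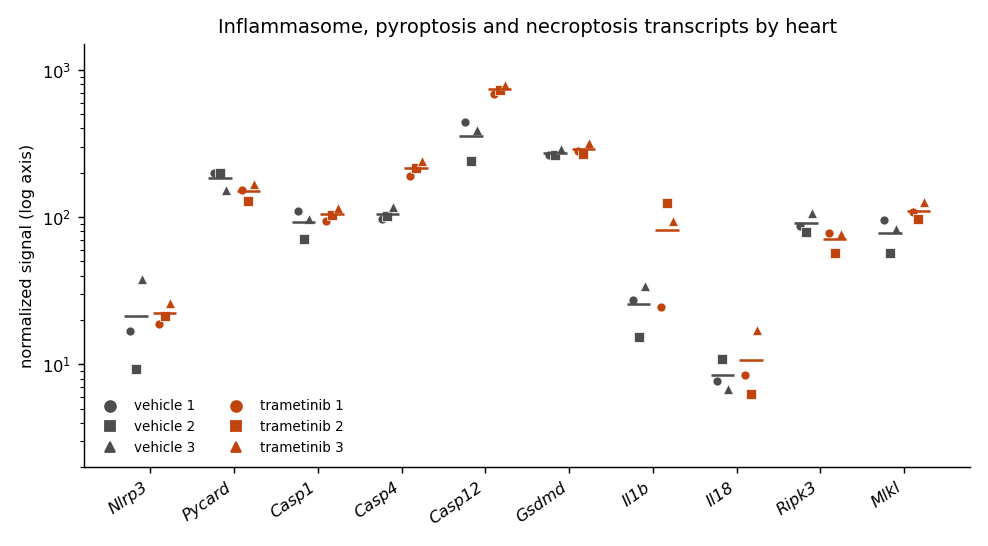
Normalized signal of the 10 genes in each heart on a log axis, with 3 vehicle (grey) and 3 trametinib (orange) hearts per gene and replicates marked by shape. The trametinib points lie above all vehicle points for Casp4, Casp12 and Mlkl and below them for Ripk3, and the arms overlap for the other members.

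The sensor and the adaptor come first in the pathway. Nlrp3, the sensor of potassium loss and membrane damage, measured 16.8, 9.25 and 38.0 in vehicle replicates 1, 2 and 3 and 18.8, 21.4 and 26.2 in trametinib replicates 1, 2 and 3. All trametinib values lay within the vehicle range. The log2 fold change was 0.25 ± 0.50 (SE, n = 3 and 3; limma adjusted p = 0.704), with a 95% interval of -0.91 to 1.42, and it turned to -0.20 (limma adjusted p = 0.735) without vehicle replicate 2. These values rest on an estimated 6 to 29 reads per heart, and a rise as large as that of Casp4 lies within the interval.

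Pycard, the adaptor that joins sensors to caspase-1, measured 200.3, 199 and 153 in the vehicle hearts and 152, 129 and 168 in the trametinib hearts. The arms overlapped, since trametinib replicate 3 lay above vehicle replicate 3. The log2 fold change was -0.29 ± 0.16 (limma adjusted p = 0.174) with an interval of -0.66 to 0.08, and -0.45 after the length and GC correction (limma adjusted p = 0.0927). Pycard shares its locus with a gene model on the opposite strand, Gm45205, and whether the counting used the strand is not given in the sources used here.

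Among the caspases, Casp4 measured 96.3, 102 and 117 in the vehicle hearts and 191, 216 and 239.7 in the trametinib hearts. The lowest trametinib heart stood well above the highest vehicle heart. The means were 105 ± 10.6 and 215 ± 24.4 (SD, n = 3), a log2 fold change of 1.03 ± 0.14 with an interval of 0.71 to 1.35 (limma adjusted p = 0.00108). It passed under every alternative run, with log2 fold changes from 0.95 to 1.49 and adjusted p from 0.000645 to 0.00631, the lowest fold change and the highest p being those without trametinib replicate 3.

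Casp12, an inflammatory caspase linked in mice to the endoplasmic reticulum and whose function is less settled, measured 440.4, 242 and 389 in the vehicle hearts and 683, 731 and 795 in the trametinib hearts. Vehicle replicate 2 lay below the other vehicle hearts, and all trametinib hearts exceeded all vehicle hearts. The means were 357 ± 103 and 736 ± 56.3, a log2 fold change of 1.08 ± 0.21 with an interval of 0.59 to 1.57 (limma adjusted p = 0.00486). The fold change ranged from 0.83, without vehicle replicate 2, to 1.26 over the alternatives, all of which kept it past the threshold (adjusted p 0.00254 to 0.0198).

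Casp1, the protease that matures both cytokines, measured 110.1, 70.9 and 97.7 in the vehicle hearts and 94.0, 103 and 115 in the trametinib hearts. The arms overlapped, and vehicle replicate 2 was the lowest of all hearts here too. The log2 fold change was 0.18 ± 0.20 with an interval of -0.28 to 0.64 (limma adjusted p = 0.482). After the length and GC correction it was 0.46 ± 0.24 (limma adjusted p = 0.199). No stretch of 75 bases, the read length, is shared between the annotated transcripts of any of the 10 members and those of another gene, so reads of the related caspases are not interchangeable at full identity.

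**Figure D2:**
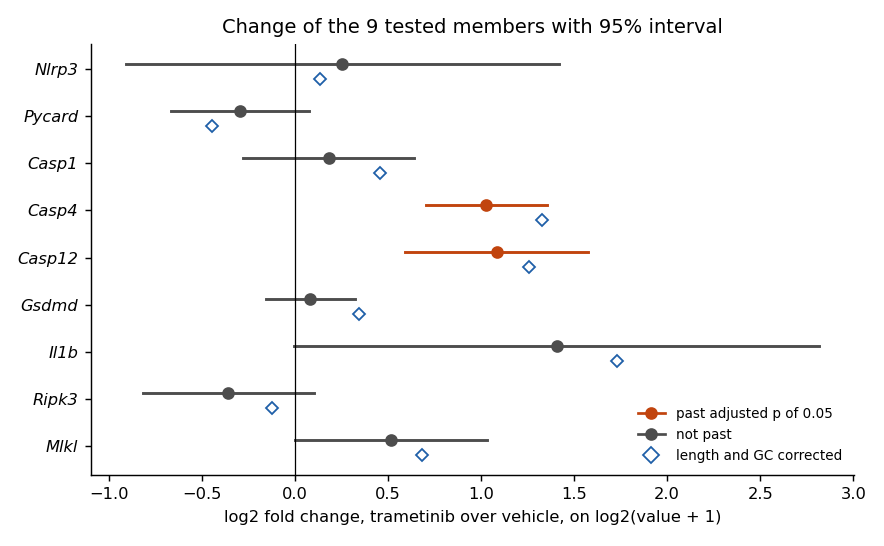
Log2 fold change of trametinib over vehicle for the 9 tested members on log2(value + 1), with lines for the 95% interval from limma (3 hearts per arm) and open diamonds for the length and GC corrected value. Casp4 and Casp12 are past the threshold at 1.03 and 1.08, and the intervals of the other 7 genes reach 0 or cross it.

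Ratios within a heart set the neighbours against each other without the scaling between libraries. Casp4 over Casp1 was 0.875, 1.43 and 1.19 in the vehicle hearts and 2.03, 2.09 and 2.09 in the trametinib hearts. Casp12 over Casp1 was 4.00, 3.41 and 3.99 against 7.26, 7.07 and 6.92. Both ratios were higher in every trametinib heart than in any vehicle heart, while Casp4 over Casp12 overlapped, at 0.219, 0.420 and 0.2997 against 0.280, 0.295 and 0.301. The log2 differences were 0.85, 0.90 and -0.05, and an exact two-sided permutation test gave p = 0.1, 0.1 and 0.8, where 0.1 is the smallest value that 3 against 3 hearts allow. Adjusted over the 4 ratios computed, which were chosen after the values were seen, the first 2 stood at 0.133.

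**Figure D3:**
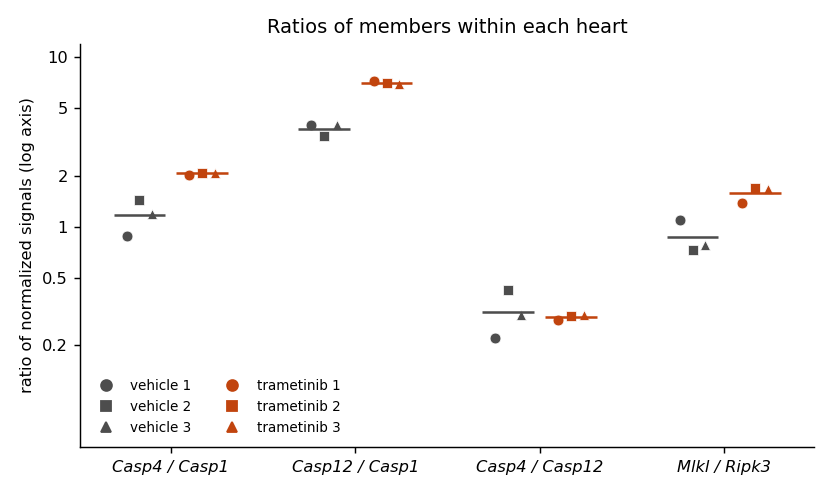
Ratios of normalized signal between members within each heart, on a log axis, with grey for vehicle and orange for trametinib and 3 hearts per arm. The trametinib hearts lie above the vehicle hearts for Casp4 over Casp1, Casp12 over Casp1 and Mlkl over Ripk3, and the arms overlap for Casp4 over Casp12.

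Gsdmd, whose cleaved form makes the pore, measured 263, 265 and 290.4 in the vehicle hearts and 281, 269 and 317 in the trametinib hearts. The values interleaved and varied little within an arm. The log2 fold change was 0.08 ± 0.10 (limma adjusted p = 0.542), and its interval of -0.16 to 0.32 leaves out a change as large as that of Casp4 or Casp12. The length and GC correction gave 0.35 (limma adjusted p = 0.109), and the same correction with lengths averaged over all coding transcripts gave 0.52 (limma adjusted p = 0.0316). Transcript level does not report cleavage, so pore formation was not measured.

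The cytokines were scarce. Il1b, the precursor of interleukin-1 beta, measured 27.5, 15.4 and 33.9 in the vehicle hearts and 24.4, 125 and 94.1 in the trametinib hearts. Trametinib replicate 1 lay within the vehicle range and the other trametinib hearts well above it. The means were 25.6 ± 9.40 and 81.1 ± 51.4, a 3.17-fold ratio, and the log2 fold change of 1.41 ± 0.60 had an interval of -0.004 to 2.82 (limma adjusted p = 0.0961). Without trametinib replicate 1 it was 2.11 (limma adjusted p = 0.00820), and without trametinib replicate 3 it was 1.16 (limma adjusted p = 0.237). With all hearts and the length and GC correction it was 1.73 (limma adjusted p = 0.0699). The estimated reads were 18, 10 and 25 in vehicle and 26, 140 and 104 in trametinib hearts, and an antisense gene, Il1bos, overlaps Il1b.

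Il18, the precursor of interleukin-18, measured 7.65, 10.8 and 6.78 in the vehicle hearts and 8.46, 6.24 and 17.2 in the trametinib hearts, with trametinib replicate 3 the highest. The arms overlapped on an estimated 5, 7 and 5 reads against 9, 7 and 19. Its mean fell under the filter, and without a filter the log2 fold change was 0.22 (limma adjusted p = 0.733). Bco2 and Tex12 overlap Il18 on the opposite strand, and both were at 2.71 or less in every heart.

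Neither necroptosis member passed the test. Mlkl, the executioner, measured 94.8, 57.0 and 82.8 in the vehicle hearts and 108, 96.3 and 128 in the trametinib hearts. Every trametinib heart was above every vehicle heart, the closest values being 94.8 and 96.3. The log2 fold change was 0.52 ± 0.22 with an interval of -0.001 to 1.03 (limma adjusted p = 0.0955), and quantile normalization gave 0.59 (limma adjusted p = 0.0399), while leaving out vehicle replicate 2 gave 0.31 (limma adjusted p = 0.216). With the length and GC correction it was 0.68 (limma adjusted p = 0.0797). A processed pseudogene, Gm45712, lies on the opposite strand of Mlkl.

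Ripk3, the kinase upstream of Mlkl, measured 87.2, 78.6 and 106 in the vehicle hearts and 78.0, 57.1 and 76.9 in the trametinib hearts. The arms did not overlap but nearly touched, at 78.6 and 78.0. The log2 fold change was -0.36 ± 0.20 with an interval of -0.81 to 0.10 (limma adjusted p = 0.180), and -0.12 (limma adjusted p = 0.734) after the length and GC correction. Mlkl over Ripk3 within a heart was 1.09, 0.725 and 0.782 in the vehicle hearts and 1.39, 1.69 and 1.66 in the trametinib hearts, a log2 difference of 0.87 without overlap (exact two-sided permutation p = 0.1, the smallest possible).

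The hearts of an arm were not ranked alike by the members. Vehicle replicate 2 was the lowest vehicle heart for 6 of the 10 members, among them Casp1, Casp12, Nlrp3, Mlkl, Ripk3 and Il1b. Trametinib replicate 3 was the highest trametinib heart for 8 of the 10, the exceptions being Ripk3 and Il1b. Without it Casp4 stood at 0.95 (limma adjusted p = 0.00631), Casp12 at 1.03 (limma adjusted p = 0.0198) and Mlkl at 0.41 (limma adjusted p = 0.256).

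To compare levels between genes, the vehicle signal was divided by transcript length in kilobases. On this scale Casp12 was the highest at 192 ± 55.5 (SD, n = 3), then Gsdmd at 152 ± 8.51, Casp4 at 73.1 ± 7.35 and Casp1 at 62.0 ± 13.4. Pycard at 48.5 ± 7.02, Ripk3 at 47.8 ± 7.37 and Mlkl at 39.3 ± 9.70 followed. The least abundant were Il1b at 18.9 ± 6.93, Il18 at 10.8 ± 2.70 and Nlrp3 at 5.37 ± 3.75. Neighbours in this order separated without overlap between Gsdmd and Casp4 and between Mlkl and Il1b, and overlapped everywhere else. The Pycard length used, 3800 bases, is long for this gene, and a shorter model would raise its value per kilobase. In the trametinib hearts Casp12 reached 368, 394 and 428 per kilobase and Casp4 133, 150.4 and 167.

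The wider pathway was read from 6 lists holding 112 distinct genes of the table outside the members. Of these 88 were tested, and 31 were higher, 9 lower and 48 not called, 45.5% in all, close to the 44.5% of the whole table. Their median log2 fold change was 0.22. The counts of each list below stand beside 21.6% higher and 22.8% lower among all genes tested. With the length and GC correction 22.2% of all genes were called in either direction, and of the pathway genes 21 were higher and 3 lower. Leaving out trametinib replicate 3, without that correction, reduced the number of pathway genes called higher to 20.

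Of the sensors and their regulators 17 were tested, of which 4 rose, 1 fell and 12 were not called, with a median of 0.15. Nek7, a kinase that binds Nlrp3, rose by 0.45 ± 0.06 (limma adjusted p = 0.000943), but by 0.24 (limma adjusted p = 0.105) after the length and GC correction. Casp8, the apical caspase of death receptors, which also appears in the lists of necroptosis regulators and of other caspases, rose by 0.54 ± 0.12 (limma adjusted p = 0.00917). Nlrp12 rose by 2.18 ± 0.51 (limma adjusted p = 0.0112), at 3.06, 3.08 and 2.71 in vehicle and 14.1, 11.6 and 28.9 in trametinib hearts, so on few reads. It passed the filter on low values only through the trametinib arm, and without trametinib replicate 1 or 3 it fell under that filter and the sensors called higher were 2 in place of 4. Naip2, which recognises a bacterial secretion-system protein for Nlrc4, rose by 0.67 ± 0.22 (limma adjusted p = 0.0391), a call that leaving out any heart but vehicle replicate 1 ended (limma adjusted p = 0.0693 to 0.136), as did the length and GC correction (0.43, limma adjusted p = 0.238) and the lack of a filter (limma adjusted p = 0.0618). Nlrp10 fell by 0.32 (limma adjusted p = 0.00906). The DNA sensor Aim2 stood at 0.08 (limma adjusted p = 0.796), Nlrc4 at -0.61 (0.379) and Nlrp1b at 0.63 (0.455), on few reads for the last pair. The Nlrp3 regulators Txnip at -0.37 (limma adjusted p = 0.523) and P2rx7, the ATP-gated channel, at -0.19 (limma adjusted p = 0.457) were not called.

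Pyroptosis effectors other than Gsdmd were mostly too low to test. Of the 14 measured, 5 were tested, and Ninj1, Chmp4b and Chmp3 fell, while Dfna5, the symbol used here for gasdermin E, rose. Ninj1, which ruptures the membrane after the pores form, measured 2428, 2587 and 2254 in vehicle and 1737, 1645 and 1720.1 in trametinib hearts. It fell by 0.51 (limma adjusted p = 0.000966), and stood at -0.04 (limma adjusted p = 0.769) after the length and GC correction. Chmp4b and Chmp3, parts of the ESCRT-III machinery that repairs membranes, fell by 0.46 and 0.20 (limma adjusted p = 0.000616 and 0.0281), and stood at -0.14 and 0.01 (limma adjusted p = 0.256 and 0.970) after that correction. The Chmp3 call was also lost without any heart but vehicle replicate 1 (limma adjusted p = 0.0533 to 0.0997). Dfna5 rose by 0.43 ± 0.13 (limma adjusted p = 0.0350), a call that leaving out any heart but vehicle replicate 1 ended (limma adjusted p = 0.0686 to 0.105), as did, among other alternatives, the length and GC correction (limma adjusted p = 0.0633). After the length and GC correction 0 of the 5 were called by limma.

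Of 32 necroptosis regulators tested, 13 rose, 4 fell and 15 were not called, with a median of 0.29, and after the length and GC correction 9 rose and 1 fell. Zbp1, the sensor of Z-form nucleic acids that engages Ripk3, measured 19.9, 6.16 and 13.6 in vehicle and 57.4, 90.9 and 100.4 in trametinib hearts. All trametinib hearts were far above the vehicle hearts, and the log2 fold change was 2.65 ± 0.43 (limma adjusted p = 0.00237). Cflar, the caspase-8 partner c-FLIP, measured 995, 855 and 1220 in vehicle and 2108, 2240 and 2577 in trametinib hearts, a rise of 1.18 ± 0.14 (limma adjusted p = 0.000607). Tnfaip3, the ubiquitin-editing inhibitor A20, rose by 1.10 ± 0.15 (limma adjusted p = 0.00102), and Rnf31, the catalytic subunit of the linear ubiquitin ligase, by 0.92 ± 0.11 (limma adjusted p = 0.000830). Tab2, an adaptor of the kinase TAK1, rose by 0.86 ± 0.05 (limma adjusted p = 0.000183).

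Ripk1, the kinase that recruits Ripk3 downstream of death receptors, measured 315, 339 and 350.1 in vehicle and 422, 446 and 498 in trametinib hearts. It rose by 0.44 ± 0.09 (limma adjusted p = 0.00779), as did Xiap, an inhibitor of caspases, by 0.56 ± 0.07 (limma adjusted p = 0.000930), and Map3k7, which encodes TAK1, by 0.41 ± 0.06 (limma adjusted p = 0.00111). After the length and GC correction these 3 stood at 0.19, 0.18 and 0.10 (limma adjusted p = 0.304, 0.248 and 0.401). The 4 that fell, named after their values were seen, were Tradd by 0.76, Fam105b by 0.54, Camk2d by 0.33 and Pgam5 by 0.27 (limma adjusted p = 0.00233 to 0.0196).

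Of 16 interleukin-1 family members and signalling proteins tested, 10 were higher, 0 lower by limma and 6 not called, and the median was 0.80. Il18r1, Il18rap and Il1r2 are among the 10 and passed the filter on low values only through the trametinib arm. With a filter at a mean of 30 the number higher was 7, and it was also 7 with the length and GC correction and without vehicle replicate 3, trametinib replicate 1 or trametinib replicate 3. Il18bp, the secreted protein that binds and neutralises interleukin-18, measured 265, 193 and 228 in vehicle and 577, 676 and 840.2 in trametinib hearts. The arms were far apart, with a log2 fold change of 1.602 ± 0.17 (limma adjusted p = 0.000452). Il18r1, the ligand-binding receptor chain, measured 3.06, 1.54 and 2.71 in vehicle and 20.7, 23.2 and 26.2 in trametinib hearts, a rise of 2.85 ± 0.44 (limma adjusted p = 0.00192) from 1 to 2 estimated reads in each vehicle heart. Il18rap, its signalling partner chain, named after its values were seen, measured 4.59, 0 and 0 in vehicle and 7.52, 12.5 and 36.2 in trametinib hearts (limma adjusted p = 0.0270), a call lost without vehicle replicate 2 or 3 (0.0720 and 0.0687) and under the length and GC correction (0.0570).

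Il1r1, the signalling receptor for interleukin-1, measured 474, 661 and 566 in vehicle and 1007, 828 and 1442 in trametinib hearts. It rose by 0.92 ± 0.21 (limma adjusted p = 0.00966), and stood at 0.62 (limma adjusted p = 0.0750) after the length and GC correction. The decoy receptor Il1r2, also named after its values were seen, measured 4.59, 13.9 and 1.36 in vehicle and 24.4, 18.7 and 76.0 in trametinib hearts (limma adjusted p = 0.0332), a call lost without any heart but vehicle replicate 2 or trametinib replicate 2 (limma adjusted p = 0.0655 to 0.107). The receptor antagonist Il1rn measured 10.7, 9.25 and 5.43 in vehicle and 4.70, 8.92 and 59.7 in trametinib hearts, high in trametinib replicate 3 only (limma adjusted p = 0.525).

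Il33, an alarmin of the interleukin-1 family, measured 235, 267 and 251 in vehicle and 495, 320.1 and 640.3 in trametinib hearts, a rise of 0.89 ± 0.23 (limma adjusted p = 0.0165) that was lost without trametinib replicate 1 (0.0556). Its receptor Il1rl1 was too low to test. Irak3, the inhibitory IRAK kinase, rose by 1.06 ± 0.18 (limma adjusted p = 0.00248) and Irak4, which starts the receptor cascade, by 0.88 ± 0.16 (limma adjusted p = 0.00352). Traf6, a ubiquitin ligase of that cascade, rose by 0.44 ± 0.08 (limma adjusted p = 0.00336), and by 0.09 (limma adjusted p = 0.598) after the correction.

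**Figure D4:**
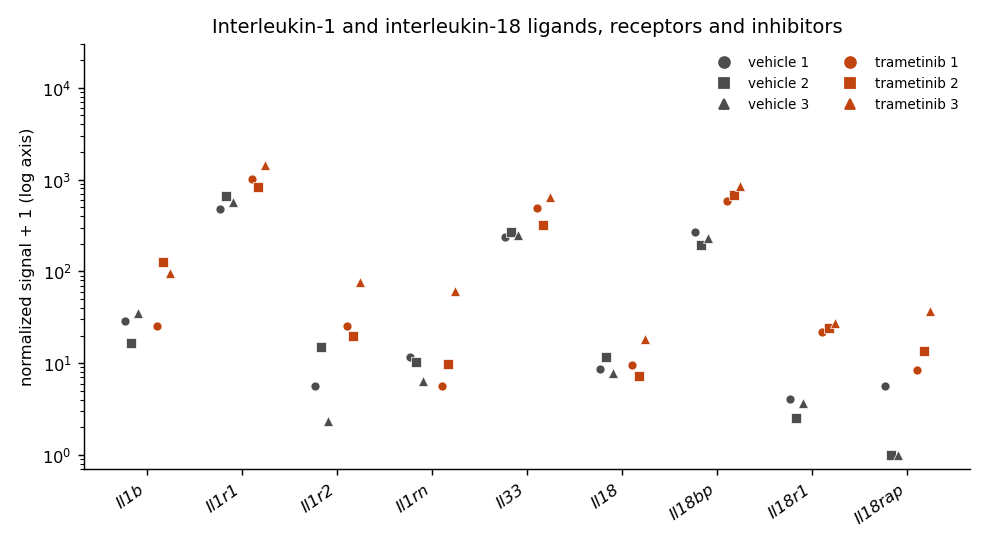
Normalized signal plus 1 in each heart, on a log axis, for Il1b and Il18 and for their receptors, inhibitors and the related Il33, with 3 vehicle (grey) and 3 trametinib (orange) hearts. Il18bp, Il18r1, Il18rap, Il1r1, Il1r2 and Il33 are higher in all trametinib hearts than in any vehicle heart. Il1b overlaps through trametinib replicate 1, Il18 overlaps, and Il1rn is high in trametinib replicate 3 alone.

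Of 15 priming genes, which raise the supply of inflammasome components, 4 rose, 0 fell by limma and 11 were not called. Their median was 0.16, and with the length and GC correction the counts were 3 higher and 1 lower. Nfkbiz, a nuclear regulator of NF-kB targets, rose by 1.32 ± 0.23 (limma adjusted p = 0.00307). Ly96, the lipopolysaccharide-binding partner of Tlr4, rose by 0.82 ± 0.19 (limma adjusted p = 0.0113) and Tlr4 itself by 0.53 ± 0.14 (limma adjusted p = 0.0165), the latter lost without trametinib replicate 3 (0.0578) and under the length and GC correction (0.48, limma adjusted p = 0.0569). Rel rose by 0.84 ± 0.22 (limma adjusted p = 0.0192), and this was lost without trametinib replicate 2 or 3 (0.0666 and 0.0503) and under that correction (0.42, limma adjusted p = 0.224). Nfkb1 at 0.16 (limma adjusted p = 0.0524) and the receptor adaptor Myd88 at 0.16 (limma adjusted p = 0.202) were not called. Among 6 other caspases tested Casp8 rose, 4 were not called and Casp6 fell by 0.63 (limma adjusted p = 0.0171; lost without trametinib replicate 1 or 2, at 0.0600 and 0.0551, and at -0.34 and 0.237 under the length and GC correction).

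**Figure D5:**
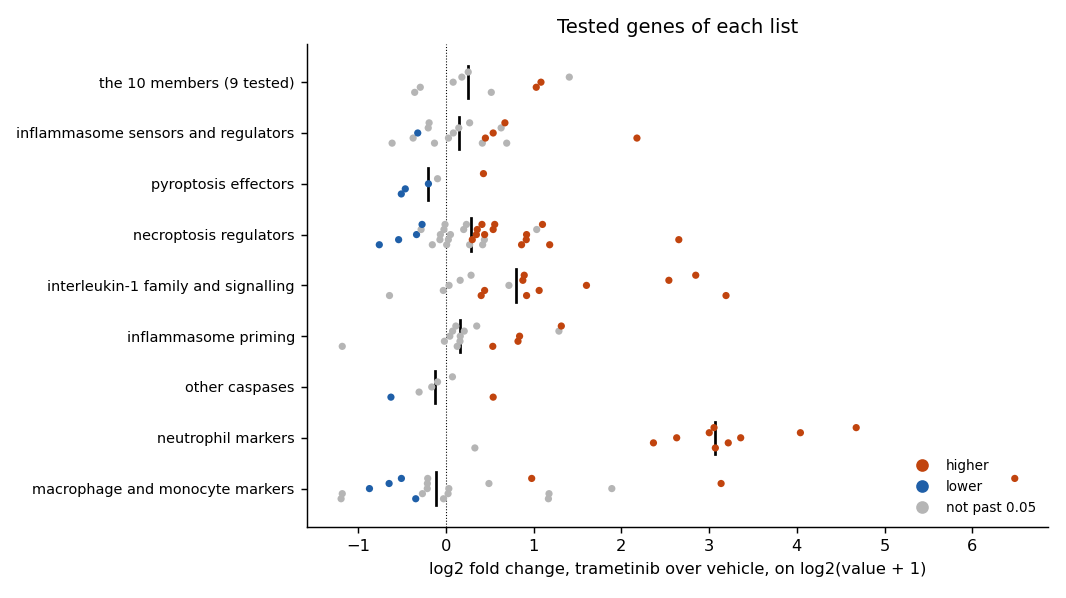
Log2 fold change of each tested gene by list (x axis, trametinib over vehicle on log2(value + 1)), coloured by whether it passed an adjusted p of 0.05 as higher or lower, with a black bar at each list's median. The members' median is 0.25, that of the interleukin-1 list 0.80, that of the neutrophil markers 3.06 and that of the macrophage and monocyte markers -0.12 (0.26 after the length and GC correction, which is not plotted).

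Markers of cell types were read beside the members. Of 10 neutrophil markers tested 9 were higher and 0 lower by limma, with a median of 3.06, and their summed signal was 498, 838 and 270.0 in vehicle and 3514, 2303 and 7047 in trametinib hearts. The most abundant was Lcn2, at 127, 177 and 66.5 in vehicle and 1164, 465 and 3064 in trametinib hearts. No neutrophil marker of the list was at 0 in all hearts, but 3 of the 13 in the table were under the filter. Of the 10 members, Pycard, Gsdmd, Mlkl and Il18 ranked the trametinib hearts as this sum did, with replicate 3 highest and replicate 2 lowest. None of these members was called. Outside the members Nlrp12, Il1r1, Il1r2 and Il33 had this order, and so did, among others, Nek7, Casp8, Irak3, Irak4, Myd88 and Nfkb1. An order of 3 hearts is easily matched and does not link a gene to neutrophils. The members Casp1, Casp4, Casp12, Nlrp3, Ripk3 and Il1b ranked the trametinib hearts otherwise. Of 20 macrophage and monocyte markers 3 were higher and 4 lower, with a median of -0.12 and a sum of 14591 to 16697 in the vehicle arm, against 11277 to 13721 with trametinib. After the length and GC correction 4 were higher and 1 lower, with a median of 0.26, so the direction turned. The largest entries of the sum were Ly6c1, with means of 4434 in vehicle and 3482 in trametinib hearts, and Lyz2, at 3443 and 2198. After the correction their log2 fold changes were 0.25 and -0.29. Mrc1 stood at 970 and 967, so the sum mostly follows a few markers. Which cells the Ly6c1 signal came from was not measured. Ly6c2, also in the list, had means of 12.7 in vehicle and 30.9 in trametinib hearts and was not called. Pan-leukocyte markers summed to 1516 to 1711 in vehicle and 1499 to 2037 in trametinib hearts, with 2 of 7 higher and 2 lower. Among T and NK cell markers 1 of 6 was higher, and the B cell markers were all under the filter. Of 5 erythroid markers 4 were higher, with a median of 3.01 and sums of 19814 to 27341 in the vehicle arm, against 54941 to 194142 with trametinib. Of 10 fibroblast markers 2 were higher and 6 lower, with a median of -0.83 (-0.97 corrected). The medians of cardiomyocyte markers, -0.38 (-0.16 corrected), and of smooth muscle and pericyte markers, -0.52 (-0.35 corrected), were also below 0. Of 15 cardiomyocyte markers 4 were higher and 9 lower, and after the correction 3 were higher and 4 lower. Of 7 smooth muscle and pericyte markers 2 were higher and 1 lower. The median of endothelial markers turned from -0.17 to 0.08 with the correction. The part of these differences in the changes of the members was not tested.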

How the data were processed

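Poly(A) RNA of 6 hearts, 3 per arm, each from its own animal, was sequenced from a strand-marking kit in a single run of 75-base single-end reads, per the labels' protocols. The labels do not say which of the RNA kits named was used for which heart. The deposited values are a signal: the authors' normalized estimated counts per gene. The submitters' processing notes name RSEM, DESeq2, SAMtools, Picard 1.64 and mm9. No source used here names the aligner or the annotation. The smallest spacing of low values was 1.36 to 1.54 for vehicle hearts and 0.892 to 0.940 for trametinib hearts, and 87.4% to 89.2% of low values came within 0.05 of a whole number of steps (below 50 steps), too few to treat them as counts. So limma 3.58.1 (R 4.3.3) with a mean-variance trend, on log2(value + 1), was the test. Estimated reads are values divided by the step. 1 further sample column matched no label and was not used. 26 symbols deposited as bare numbers were restored from their gene IDs. Lengths and GC content are from GENCODE on GRCm38, and promoters from RefSeq on GRCm38.p6. The length and GC correction removed a lowess trend (span 0.3) per library.

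The members and lists were chosen with earlier results of these data known. Genes named are the 10 members, from each pathway list up to 6 called genes with the smallest p, a fixed set of pathway genes (1 of which is not reported here), and, for some cell type lists, a gene among the 3 with the highest mean. Il18rap, Il1r2 and the necroptosis regulators that fell were added after their values were seen. The fit was tested on simulated data. Alternatives were other pseudocounts, filters, scalings, fit options, the replicate block, voom, thinning, the length and GC correction and leaving out each heart.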

Additional observations from a re-analysis of the deposited data

How the results depend on the processing

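For the members, 166 of 170 values kept their direction and side of the threshold: Gsdmd, Mlkl and Il1b passed under 1 alternative each, and Nlrp3 ran from -0.20 to 0.76 when hearts were left out. Without a correction 6037 genes were called (2939 higher, 3098 lower). The length and GC correction gave 2986 genes called, 1744 of them higher and 1242 lower, and with lengths averaged over all coding transcripts, an alternative chosen after seeing the data, 3354 genes called, 1942 of them higher and 1412 lower. With these corrections the pathway list counts fell to 3 and 4 lower (from 9), and to 21 and 20 higher (from 31). The pathway list counts, higher, were 20 to 30 with hearts left out. Under the 2 corrections Chmp3 stood at 0.00506 and 0.155 and under the first P2rx7 stood at 0.0245. With hearts left out Aim2 ran from -0.17 to 0.29, Nlrp1b from -0.00297 to 1.24, Txnip from -0.78 to 0.0715 and P2rx7 from -0.33 to 0.0245. The cause was not tested. Of 729 values of other named genes 654 kept their call, 65 lost it, 3 gained it and 7 changed sign, and of 228 list counts 200 stayed within 1.5 times.

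The labels number the animals of each arm, and same-numbered hearts deviated together by correlations of 0.238, 0.0191 and 0.50. Of the 6 hearts, 3 correlated best with their own number. The labels give no other link between same-numbered hearts, and these correlations cannot tell whether they share more than a number. With the replicate block 5762 genes were called, and among the members Casp4 (adjusted p = 0.0031) and Casp12 (adjusted p = 0.0096) were the 2 called. Naip2, Dfna5, Il18rap and Il1r2 lost their calls (adjusted p = 0.0629, 0.0563, 0.0544 and 0.0779). Depth limits, among others, Il18, Nlrp3, Il18r1, Nlrc4, Nlrp1b and Il1rl1, each on fewer than 30 estimated reads in every heart. Zbp1 rested on an estimated 13, 4 and 10 reads in the vehicle hearts.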
